A study of Mus musculus with 8 samples.

Results

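The proteasome subunit genes were taken as every gene with a symbol of Psma, Psmb, Psmc or Psmd followed by a digit, without the immunoproteasome genes Psmb8, Psmb9 and Psmb10. The rule used names only and no measured value. It found 37 of the 19938 genes that had a probe set with 1 symbol, and all 37 passed the filter on dim signals and were among the 16026 genes tested. They comprise 16 genes of the core particle (8 alpha and 8 beta), 17 of the regulatory particle (6 ATPases and 11 non-ATPases), 3 assembly chaperones and Psmc3ip, which meets the rule by name but encodes a recombination factor that binds Psmc3 and is no subunit. Psma8 and Psmb11 encode forms specific to testis and thymus.

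Cervical cord RNA of male C57BL/6 mice, given as 6 weeks old, was measured on 8 arrays in 4 groups of 2. The acupoint group was injected with MPTP for 4 weeks (20 mg/kg, every 24 h) and was needled by hand at GB34 (3 mm deep) and LR3 (1 mm deep) of the leg and foot, 2 h after MPTP and every 48 h, in 14 sessions. The non-acupoint group received the same MPTP and the same schedule of needling, 3 mm deep at both hips. The MPTP group received MPTP without needling, and the control group received saline. All groups were thus injected daily, and no group was needled without MPTP. MPTP is a toxin of dopaminergic neurons whose cell bodies lie in the midbrain and not in the cord, so the tissue measured is not the main site of the lesion. Each array carries a mouse number, but the protocol counts 9 mice in the MPTP group and 9 in the control group, and it does not say if tissue was pooled. P-values therefore measure only how far these samples differ, and part of that may be technical.

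The proteasome degrades proteins that carry ubiquitin chains. Its core particle is a barrel of stacked rings. The outer alpha rings gate the entry, and the inner beta rings hold the proteolytic sites on the products of Psmb5, Psmb6 and Psmb7. The regulatory particle caps the barrel. Its base carries a ring of ATPases that unfold the substrate and receptors that bind ubiquitin, and its lid holds the deubiquitinase Psmd14. Dedicated chaperones help to build the base and leave before the particle is complete. In neurons the proteasome takes part in the turnover of synaptic proteins, and protein breakdown is a recurrent subject in studies of parkinsonism. When proteasome activity is low, mammalian cells raise subunit genes through the transcription factor encoded by Nfe2l1, which binds antioxidant response elements in their promoters.

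Promoter sequences are shown here because subunit genes can be controlled together through shared elements. RefSeq promoter windows of build GRCm38.p6 were matched by symbol for 30 of the 37 genes, and the 250 bases before the start were searched on both strands. Below are the windows of Psmd5, Psmd9 and Psmd12, which had higher signals in MPTP-treated than in control samples, and of the catalytic subunit genes Psmb5 and Psmb6, which did not pass. Capitals mark matches on either strand to TGANNNNGC, the core letters of the antioxidant response element. The start used for the Psmb6 window differs from its gene coordinates, which begin at chr11:70525324. By those coordinates its marked match lies inside the gene. The windows are Psmd5 at chr2:34870963-34871212, minus strand; Psmd9 at chr5:123227940-123228189, plus strand; Psmd12 at chr11:107479278-107479527, plus strand; Psmb5 at chr14:54617996-54618245, minus strand; and Psmb6 at chr11:70525107-70525356, plus strand.
Psmd5: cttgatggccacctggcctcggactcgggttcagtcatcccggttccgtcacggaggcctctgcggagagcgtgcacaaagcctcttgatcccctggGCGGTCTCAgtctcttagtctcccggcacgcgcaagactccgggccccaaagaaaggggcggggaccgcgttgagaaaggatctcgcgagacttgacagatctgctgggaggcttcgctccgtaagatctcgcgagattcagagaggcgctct
Psmd9: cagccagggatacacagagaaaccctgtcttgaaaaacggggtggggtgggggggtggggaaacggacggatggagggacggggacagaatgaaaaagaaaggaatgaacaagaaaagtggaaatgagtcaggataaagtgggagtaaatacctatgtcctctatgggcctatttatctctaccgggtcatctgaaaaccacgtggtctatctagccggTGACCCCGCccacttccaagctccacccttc
Psmd12: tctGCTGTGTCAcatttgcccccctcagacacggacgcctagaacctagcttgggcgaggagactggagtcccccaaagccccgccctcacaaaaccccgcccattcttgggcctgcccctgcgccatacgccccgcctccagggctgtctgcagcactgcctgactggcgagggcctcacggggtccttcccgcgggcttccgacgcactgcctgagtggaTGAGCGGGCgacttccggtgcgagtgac
Psmb5: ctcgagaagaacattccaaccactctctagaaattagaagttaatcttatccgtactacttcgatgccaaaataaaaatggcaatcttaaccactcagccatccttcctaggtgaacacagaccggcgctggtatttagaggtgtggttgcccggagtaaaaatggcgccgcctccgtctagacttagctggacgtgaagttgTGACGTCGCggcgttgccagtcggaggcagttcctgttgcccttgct
Psmb6: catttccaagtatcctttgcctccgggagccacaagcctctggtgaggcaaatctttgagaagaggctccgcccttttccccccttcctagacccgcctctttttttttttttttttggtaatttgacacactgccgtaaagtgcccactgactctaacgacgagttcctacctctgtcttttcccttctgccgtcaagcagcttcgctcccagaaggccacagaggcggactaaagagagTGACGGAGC

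TGANNNNGC was present in 13 of the 30 windows, against 35.2% of all 32851 windows of the same length. It stood in 5 of the 12 windows of genes that rose in MPTP minus control and in 8 of the 18 windows of genes that did not pass. Psmb11 and Psmc3ip, which are dim here, are among those 8. So is Psmb6, whose match lies inside the gene by its coordinates. The motif therefore occurs in windows of genes of both kinds, as those of Psmd5 and Psmb5 show. All 5 windows printed above hold a match, so they do not represent the 30. CCGGAAG, letters bound by ETS factors, was in 10 of 30 windows and in 6.91% of all windows, and the palindromic motif of nuclear respiratory factor 1 was in 6 of 30 and in 3.74%. GGGCGG was in 17 of 30 (32.7% of all windows) and CCAAT in 13 of 30 (33.8%). TGACTCAGC and the heat shock element were in 0 of 30, and in 0.39% and 0.466% of all windows. These 7 patterns can overlap within a window, and a match is a description of letters, not a bound site.

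Some arrays stood apart in markers of other tissue. The mean of 15 skeletal muscle markers, such as Acta1 and Ckm, was 6.99 and 5.63 on acupoint replicates 1 and 2, 5.56 and 5.94 on the non-acupoint arrays, 5.86 and 5.80 on the MPTP arrays, and 7.48 and 8.94 on the control arrays. Of these 15 genes 11 fell in MPTP minus control, against 3.10% of all genes tested. Schwann cell markers (3 genes) averaged 8.67 and 6.62 on the acupoint arrays, 6.69 and 7.09 on the non-acupoint arrays, 6.70 and 7.96 on the MPTP arrays, and 9.02 and 6.54 on the control arrays. Meningeal and fibroblast markers (5 genes) averaged 8.49 and 6.31 on the acupoint arrays, 6.66 and 7.05 on the non-acupoint arrays, 6.46 and 7.52 on the MPTP arrays, and 8.26 and 6.62 on the control arrays, and 0 of them passed in MPTP minus control. The 2 erythroid markers tested, Alas2 and Slc4a1, averaged 5.68 and 6.06 on the acupoint arrays, 7.15 and 6.56 on the non-acupoint arrays, 6.73 and 6.80 on the MPTP arrays, and 5.47 and 5.48 on the control arrays. Alas2 rose by 2.45 in MPTP minus control (adjusted p = 0.00543 in limma), and Slc4a1, at 0.13, did not pass. Acupoint replicate 1 and both control arrays thus held the higher muscle and the lower erythroid signals, and acupoint replicate 1 stood apart from replicate 2 of its group. Neuronal (10 genes), astrocyte (6) and oligodendrocyte (7) markers averaged 9.91 to 10.83 on every array. Of the 10 neuronal markers 6 rose in MPTP minus control, and so did 6 of 6 astrocyte markers and 5 of 8 microglial markers. Motor neuron markers rose for 3 of 6 and oligodendrocyte markers for 2 of 7. Over all genes tested 13.7% rose, and 28.7% of those with a mean signal of at least 7.92. In bulk tissue, fewer cells of a type and less RNA per cell cannot be told apart.

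MPTP against saline asks whether the toxin moved these transcripts in the cord. Of the 37 genes 14 rose and 0 fell at an adjusted p under 0.05 (limma, Benjamini-Hochberg over all genes tested), by 0.32 to 0.70 on the log2 scale, which is 1.25-fold to 1.63-fold. Over all genes tested 13.7% rose and 3.10% fell. Bright genes rose more often: among the 5180 genes with a mean signal of at least 7.92, which is the lowest mean of the 34 members other than Psma8, Psmb11 and Psmc3ip, 28.7% rose. Of these 34 members 14 rose, which is 41.2%. The share among the members exceeded that of all genes, and that of genes of like signal by a smaller margin. The median difference of the 37 members was 0.21, against 0.061 over all genes. That of the 34 bright members was 0.28, against 0.19 over the bright genes. Differences were positive for 30 of the 37 members, against 59.3% of all genes and 76.4% of bright genes. Both MPTP arrays lay above both control arrays for 26, against 41.9% of all genes. That last share was not computed for bright genes, which were more often higher in general. The 23 members that did not pass ranged from -0.41 to 0.49.

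**Figure D1:**
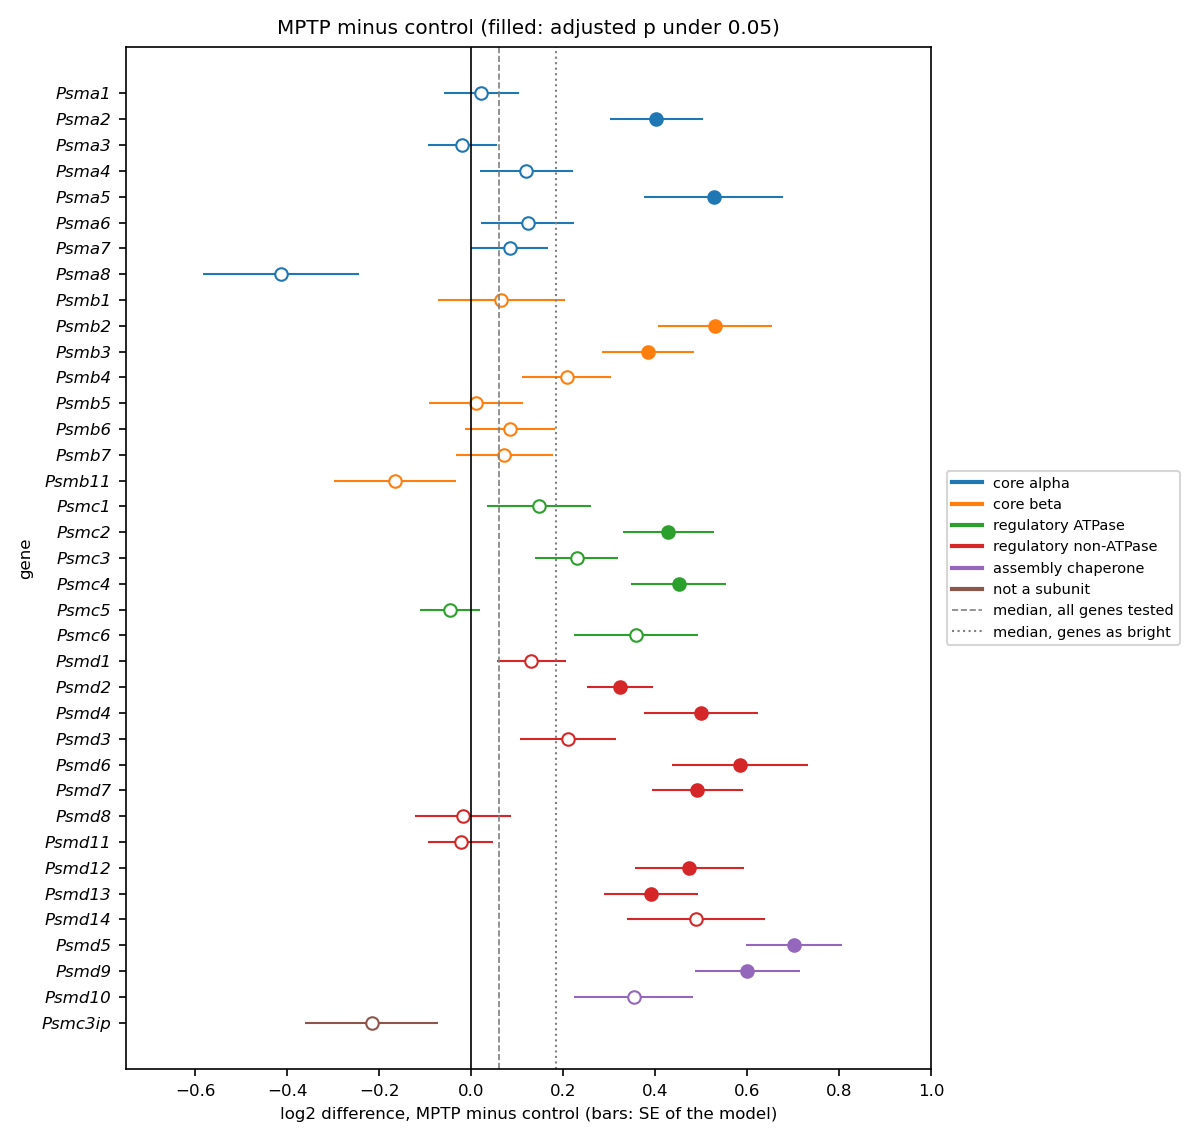
Log2 difference of each of the 37 genes in MPTP minus control (points) with the standard error of the limma model fitted to 8 arrays (bars), grouped by role; filled points had an adjusted p under 0.05, and the dashed and dotted lines are the medians of all genes tested and of genes as bright. The 14 filled points lie between 0.32 and 0.70, 8 of them in the regulatory particle, 4 in the core and 2 among the chaperones.

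The assembly chaperones held the largest differences. Psmd5, a chaperone of the base that holds its ATPases during assembly, had a log2 signal of 9.15 and 9.15 on the MPTP arrays, against 8.42 and 8.47 on the control arrays. It rose by 0.70 (SE 0.10, adjusted p = 0.00456 in limma), with no overlap between the groups. Psmd9, another base chaperone, had 8.03 and 8.19 on the MPTP arrays, against 7.65 and 7.37 on the control arrays, and rose by 0.60 (SE 0.11, adjusted p = 0.00971 in limma). Psmd10, which encodes gankyrin, the remaining chaperone, had 8.99 and 8.92 on the MPTP arrays and 8.69 and 8.51 on the control arrays. Its difference of 0.35 (SE 0.13) did not pass (adjusted p = 0.0924 in limma), although the arrays did not overlap. Psmd5 and Psmd9 were also the 2 genes with the smallest p among the 4 members called by the limma F-test over the 4 groups, ahead of Psmd7 and Psmd2 (adjusted p = 0.0106, 0.0264, 0.0355 and 0.0441). That test called 10.8% of all genes. Its count of members moved whenever 1 array was left out, up without an acupoint array and down without any other. The share of all genes called was not taken for those fits, so these moves cannot be read as particular to the members.

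Of the 17 regulatory particle genes 8 rose (47.1%), against 13.7% of all genes and 28.7% of bright genes, and their median difference was 0.36. The lid gave 4 of the 8. Psmd6 had 10.53 and 10.37 on the MPTP arrays, against 9.88 and 9.86 on the control arrays, a rise of 0.58 (SE 0.15, adjusted p = 0.0275 in limma). Psmd7, the partner of the lid deubiquitinase, had 9.50 and 9.59 on the MPTP arrays, against 9.06 and 9.05 on the control arrays, a rise of 0.49 (SE 0.10, adjusted p = 0.0121). For both genes the arrays of the 2 groups did not overlap, and replicates lay closer to each other than the groups did. Psmd12 had 10.09 and 10.06 on the MPTP arrays, against 9.60 and 9.60 on the control arrays, and rose by 0.47. Psmd13 had 8.68 and 8.57 on the MPTP arrays, against 8.22 and 8.25 on the control arrays, and rose by 0.39. Psmd14, the deubiquitinase itself, had 10.34 and 10.38 on the MPTP arrays, against 9.96 and 9.78 on the control arrays, and its difference of 0.49 (SE 0.15) just missed the threshold (adjusted p = 0.0535 in limma). The other lid genes were flatter: Psmd3 was at 0.21, Psmd8 at -0.018 and Psmd11 at -0.023, and none of them passed.

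In the base, Psmd4, a ubiquitin receptor, had 9.19 and 9.16 on the MPTP arrays, against 8.62 and 8.73 on the control arrays, a rise of 0.50 (SE 0.12, adjusted p = 0.0254 in limma). Psmd2, a scaffold of the base, had 10.67 and 10.63 on the MPTP arrays, against 10.36 and 10.29 on the control arrays, and rose by 0.32 (SE 0.072, adjusted p = 0.0166). This was the smallest difference of the 14, measured with one of the smallest errors. Psmd1, the other large scaffold, was at 0.13 and did not pass. Of the 6 ATPase genes 2 rose, a number too small to set against the 28.7% of bright genes. Psmc4 had 9.29 and 9.21 on the MPTP arrays, against 8.76 and 8.84 on the control arrays, a rise of 0.45 (SE 0.10, adjusted p = 0.0188). Psmc2 had 9.67 and 9.78 on the MPTP arrays, against 9.20 and 9.39 on the control arrays, a rise of 0.43 (SE 0.098, adjusted p = 0.0189). The other ATPases did not pass, and they ran from -0.046 for Psmc5 to 0.36 for Psmc6 (adjusted p = 0.101 in limma), with Psmc1 at 0.15 and Psmc3 at 0.23.

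Of the 16 core genes 4 rose. Without Psma8 and Psmb11 this is 4 of 14, or 28.6%, which is the share of bright genes in general. Psma5, an alpha ring subunit, had 8.92 and 8.95 on the MPTP arrays, against 8.43 and 8.39 on the control arrays, a rise of 0.53 (SE 0.15, adjusted p = 0.0427 in limma). Psma2, also of the alpha ring, had 9.79 and 9.72 on the MPTP arrays, against 9.36 and 9.35 on the control arrays, a rise of 0.40 (SE 0.10, adjusted p = 0.0262). The other alpha genes of the general proteasome lay between -0.019 (Psma3) and 0.12 (Psma4 and Psma6), with Psma1 at 0.022 and Psma7 at 0.084. Among the beta genes, the non-catalytic Psmb2 had 9.21 and 9.14 on the MPTP arrays, against 8.66 and 8.62 on the control arrays, a rise of 0.53 (SE 0.12, adjusted p = 0.0205). Psmb3, also non-catalytic, had 9.98 and 9.82 on the MPTP arrays, against 9.43 and 9.60 on the control arrays, a rise of 0.38 (SE 0.10, adjusted p = 0.0304). Psmb1 and Psmb4, the remaining non-catalytic beta genes, were at 0.066 and 0.21 without passing.

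The 3 catalytic genes did not pass. Psmb5, which carries the chymotrypsin-like site, had 8.85 and 8.77 on the MPTP arrays and 8.67 and 8.92 on the control arrays, a difference of 0.011 with a 95% interval from -0.22 to 0.24. Psmb6, of the caspase-like site, had 10.21 and 10.12 on the MPTP arrays and 10.01 and 10.15 on the control arrays, a difference of 0.085 (95% interval -0.14 to 0.31). Psmb7, of the trypsin-like site, had 10.54 and 10.54 on the MPTP arrays and 10.45 and 10.49 on the control arrays, a difference of 0.072 (95% interval -0.17 to 0.31). The upper bounds of these intervals lie below the differences fitted for Psmd5, Psmd9, Psmd6, Psmb2 and Psma5, but those genes were picked for their high values. The 95% intervals of Psmd6, Psmb2 and Psma5 start at 0.25, 0.25 and 0.19, and overlap those of Psmb6 and Psmb7. The intervals of Psmd5 and Psmd9 start at 0.47 and 0.34. No test between genes was run, so the catalytic genes are not shown to differ from the others. All 3 differences turned negative after cyclic loess, at -0.13, -0.070 and -0.085 for Psmb5, Psmb6 and Psmb7, again without passing. Psma8, Psmb11 and Psmc3ip, with mean signals near the lower limit of the genes tested, were at -0.41, -0.17 and -0.22, and none passed.

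Several members have more than 1 probe set under the same symbol, and these need not all measure the functional gene, since near-identical processed copies of proteasome genes exist in mammals. For Psmd2 the 2 probe sets gave 0.32 and 0.36, and for Psma5 0.53 and 0.56, all past the threshold in a limma fit over probe sets. For Psmb3 they gave 0.38 and 0.16, and the lower one did not pass (adjusted p = 0.334 over probe sets in limma), so the rise of Psmb3 rests on 1 of its 2 probe sets. Those of Psmc1 gave 0.15 and 0.16, and the 3 of Psma3 gave -0.019 to 0.052, none past the threshold.

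The calls were sensitive to the number of arrays and to scaling, although all 14 differences stayed positive in each alternative fit run. After cyclic loess 7 of the 37 genes passed (Psmb2, Psmc4, Psmd4, Psmd6, Psmd7, Psmd5 and Psmd9), 20 of the 37 differences were positive in place of 30, and their median was 0.084. After a further quantile normalization 12 passed, and with arrays centred on their medians 18 did, when the median of all genes tested moved to 0.22 and that of the members to 0.37. Over all genes tested 2199 rose and 497 fell with the deposited scaling, and 2047 and 632 after the further quantile normalization. After cyclic loess 1338 rose and 752 fell, and with arrays centred 4028 and 218, while 0 members fell in any of these. Without control replicate 1 the genes that passed were 4 (Psmd2, Psmd7, Psmd5 and Psmd9), without control replicate 2 they were 2 (Psmc2 and Psmd5). Over all genes 9.95% and 3.48% rose in these fits, so the members' share without control replicate 1 was near the background. Without MPTP replicate 1 or 2, where 1 array stood for the MPTP group, the calls of members were lost, as were most of those over all genes. Differences of the 14 were then 0.784 to 1.13 times those of all arrays where replicate 1 was left out, and 0.869 to 1.22 times where replicate 2 was. With the muscle marker mean as a covariate 0 members passed, 1 had an unadjusted p under 0.05, and 4 of all 16026 genes passed. The 14 differences were then 0.0448 to 1.02 times those of the fit without it (median 0.486). The part of other tissue in these differences was not tested.

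**Figure D2:**
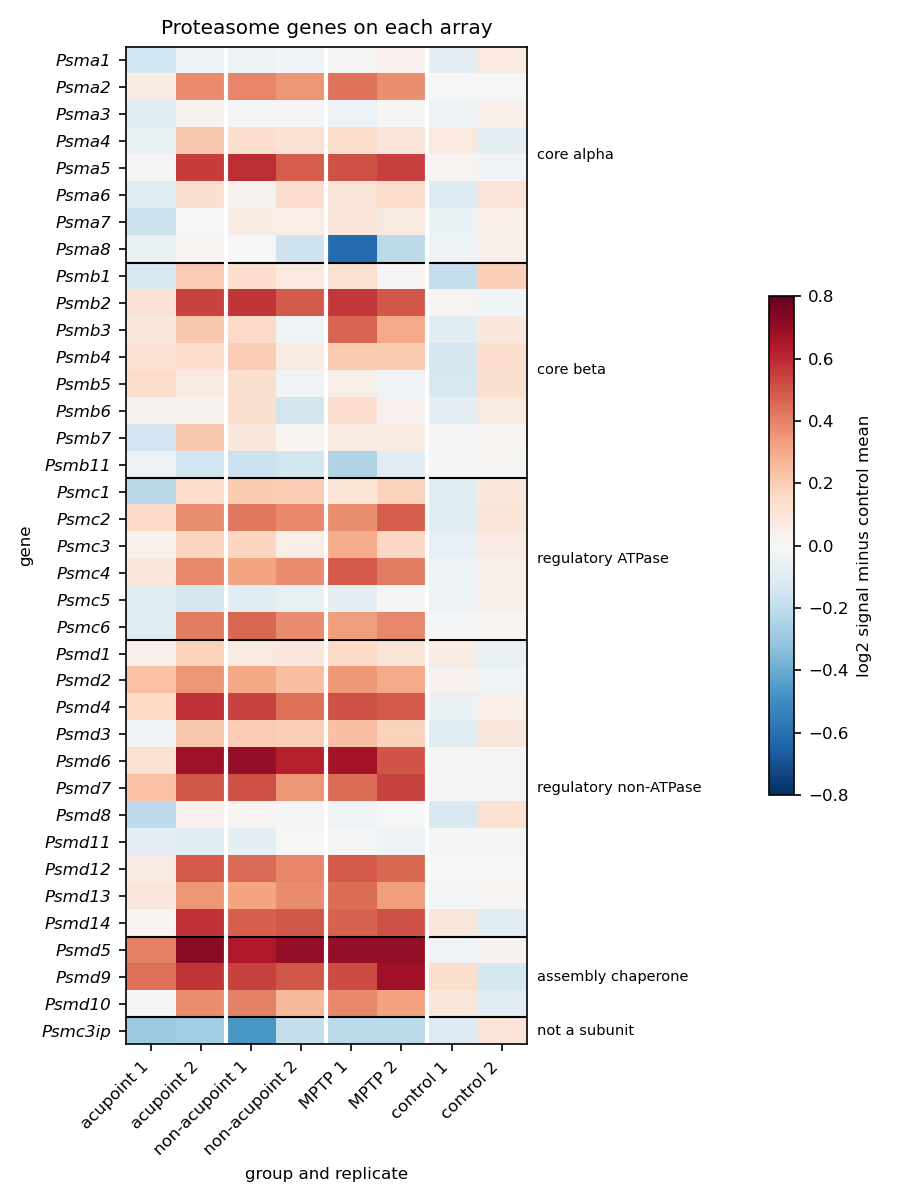
Log2 signal of each gene (rows, grouped by role) on each array (columns) minus the mean of the 2 control arrays, on a colour scale from -0.8 to 0.8. The rows of Psmd6, Psmb2 and Psma5 are deep red on 5 of the 6 MPTP-treated arrays and pale on acupoint replicate 1, where Psmd5 and Psmd9 are still red, at 0.40 and 0.44.

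Needling at the acupoints against MPTP alone asks whether acupuncture moved these genes in MPTP-treated mice. No member passed, the smallest adjusted p being 1, and 0% of all genes passed. At an unadjusted p under 0.05, 2 members and 1.25% of all genes were found. Signs were uneven, with 3 of the 37 differences positive, against 46.5% of all genes and 36.6% of bright genes, and 34 negative (median -0.13, against -0.0098 over all genes), and 10 members lay below the MPTP arrays without overlap, against 11.9% of all genes and 13.5% of bright genes. Psmc4 had 8.88 and 9.18 in the acupoint group, against 9.29 and 9.21 on the MPTP arrays (log2 difference -0.22, SE 0.10). Psmc2 had 9.45 and 9.67 in the acupoint group, against 9.67 and 9.78 on the MPTP arrays (-0.17, SE 0.098). Psmb3 had 9.60 and 9.73 in the acupoint group, against 9.98 and 9.82 on the MPTP arrays (-0.23, SE 0.10). In each case replicate 1 was the lower of the 2 acupoint arrays. Psma8 was one of the 3 positive members, with 4.45 and 4.53 in the acupoint group, against 3.89 and 4.30 on the MPTP arrays, at dim signals.

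Acupoint replicate 1 was low for most members, although 15 of the 37 differences in acupoint minus MPTP were negative without it too. This array was the lowest of the 6 MPTP-treated arrays for 28 of the 37 genes, against 34.8% of all genes and 53.6% of bright genes. It was the lowest for 15 of 17 regulatory genes, 3 of 3 chaperones, 7 of 8 alpha genes and 3 of 8 beta genes. Psma5 had 8.40 on acupoint replicate 1 and 8.96 on replicate 2, with 9.00 and 8.89 on the non-acupoint arrays, 8.92 and 8.95 on the MPTP arrays, and 8.43 and 8.39 on the control arrays. Psmd14 had 9.89 on acupoint replicate 1 and 10.45 on replicate 2, with 10.35 and 10.36 on the non-acupoint arrays, 10.34 and 10.38 on the MPTP arrays, and 9.96 and 9.78 on the control arrays. Replicate 1 was thus within the control range for Psma5 and Psmd14, and replicate 2 within or above that of the other MPTP-treated arrays. Over the 14 genes the median difference from the control mean was 0.12 on acupoint replicate 1 and 0.49 on replicate 2, 0.48 and 0.39 on the non-acupoint arrays, and 0.49 and 0.49 on the MPTP arrays. These genes were chosen for being high on the MPTP arrays, which tends to raise their values there. Over all 37 members the medians were 0.018 and 0.21 on acupoint replicates 1 and 2. They were 0.21 and 0.13 on the non-acupoint arrays, and 0.24 and 0.18 on the MPTP arrays. Psmd5 and Psmd9 kept more of their level on acupoint replicate 1, at 0.40 and 0.44 above the control mean, while Psmd10 was at -0.016.

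**Figure D3:**
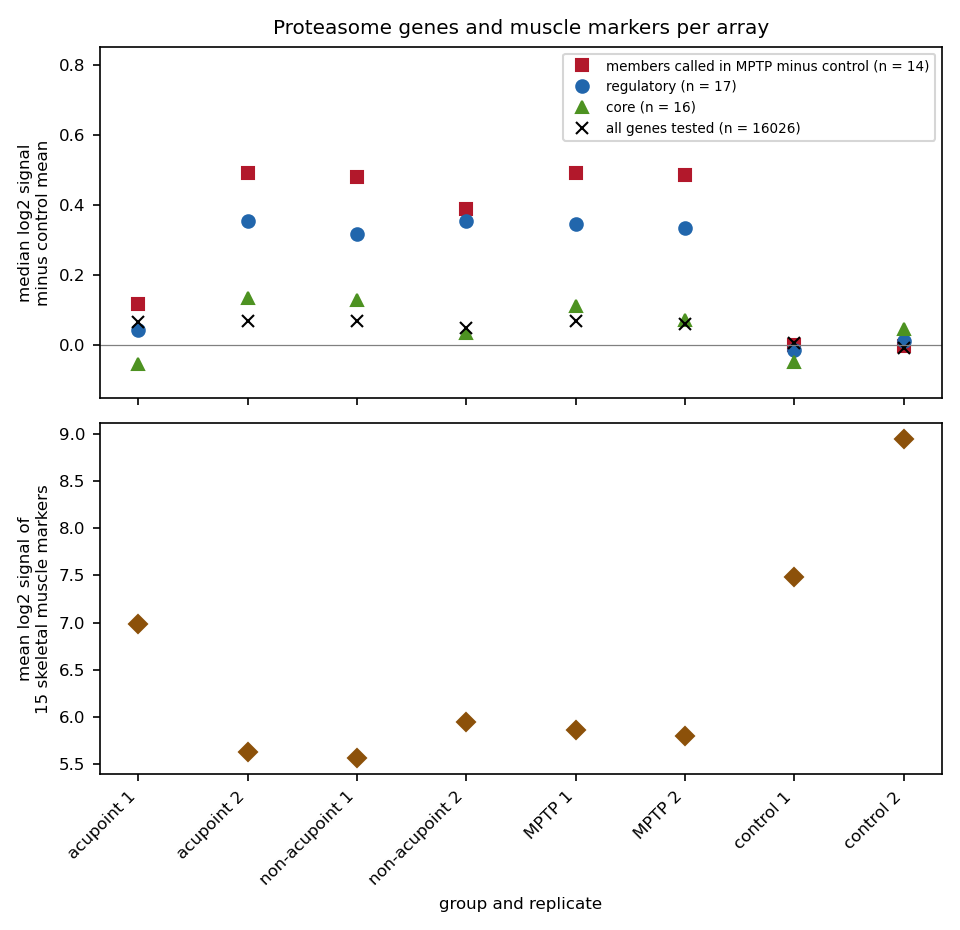
Upper panel: median over genes of the log2 signal minus the control mean, per array, for the 14 genes that rose in MPTP minus control, the 17 regulatory, the 16 core and all 16026 tested genes. Lower panel: mean log2 signal of 15 skeletal muscle markers on the same arrays. Acupoint replicate 1 has the lowest median of the 14 genes among the 6 MPTP-treated arrays, 0.12, and the highest muscle mean among them, 6.99. The 14 genes were chosen by their MPTP minus control differences in these same data.

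The 2 acupoint arrays differed from each other more than those of any other group. Replicate 2 was higher for 32 of the 37 genes, by a median of 0.25, against 0.029 over all genes and 0.11 over bright genes. The corresponding medians over the 37 genes were -0.038 in the non-acupoint group, -0.024 in the MPTP group and 0.077 in the control group. Without acupoint replicate 1 the median of acupoint minus MPTP was 0.0075, with 22 of 37 differences positive. The muscle, Schwann cell, meningeal and erythroid markers moved with this array as given above, and their part in its proteasome values was not tested.

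Hip needling against MPTP alone gave 0 members past the threshold, 1 at an unadjusted p under 0.05 (1.70% of all genes), and a median difference of -0.024, with 12 of 37 differences positive, against 47.4% of all genes and 51.7% of bright genes. The member was Psmb3, with 9.67 and 9.49 in the non-acupoint group, against 9.98 and 9.82 on the MPTP arrays (-0.32, SE 0.10, adjusted p = 1 in limma). Its other probe set had 9.18 and 9.09 in the non-acupoint group, against 9.32 and 9.23 on the MPTP arrays. Psmc4, at -0.10, and Psmc3, at -0.12, had the smallest p among the regulatory genes. The regulatory particle was near the MPTP group, with medians over 17 genes of 0.32 and 0.36 above the control mean in the non-acupoint group, against 0.35 and 0.33 on the MPTP arrays. Non-acupoint replicate 2 was the lowest of the 6 MPTP-treated arrays for 4 beta genes, with Psmb3 at 9.49 and Psmb6 at 9.93 among them.

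Acupoint against hip needling asks whether the site of needling mattered. No member passed (smallest adjusted p = 0.936 in limma), 0 had an unadjusted p under 0.05, against 3.77% of all genes, and the median difference was -0.065. Of the 37 differences 8 were positive, against 49.8% of all genes and 38.0% of bright genes. Psmc6 had 9.72 and 10.23 in the acupoint group, against 10.28 and 10.20 on the non-acupoint arrays (-0.26, SE 0.13). Psmc1 had 9.67 and 10.03 in the acupoint group, against 10.10 and 10.10 on the non-acupoint arrays (-0.25, SE 0.11). Psma7 had 9.03 and 9.21 in the acupoint group, against 9.26 and 9.26 on the non-acupoint arrays (-0.14, SE 0.084). Without acupoint replicate 1 the median was 0.041 and 30 of 37 differences were positive. With acupoint replicate 1 standing alone for its group, Psma5, Psmc6 and Psmc1 were at -0.55, -0.52 and -0.43. These members are named for their low values, and a lone array gives no spread of its own. This array was low for bright genes in general, being the lowest of the 6 MPTP-treated arrays for 53.6% of them.

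**Figure D4:**
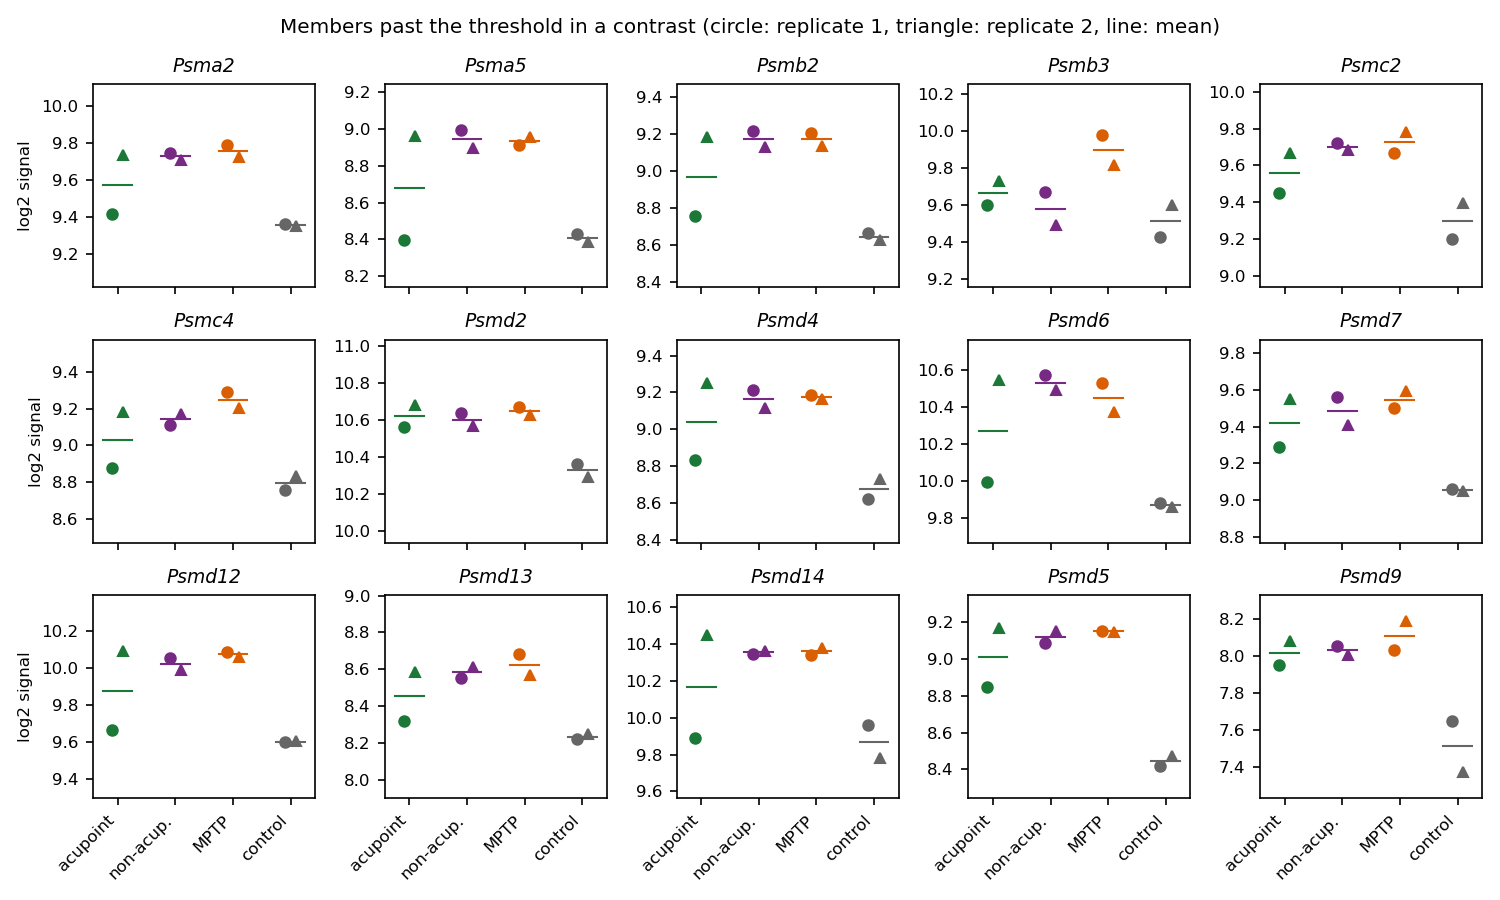
Log2 signal of the 15 genes past the threshold in at least 1 comparison, on each array, by group; circles are replicate 1, triangles replicate 2, and lines group means, with an axis of the same length in each panel. In 14 of the 15 panels, all but that of Psmb3, the circle of the acupoint group lies below the other MPTP-treated arrays, and in all 15 both MPTP arrays lie above both control arrays. The genes were chosen by their values in these same data.

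Against control, the needled groups shared the 2 control arrays with the MPTP comparison, so their values are given side by side and are no separate support. In acupoint minus control 4 members rose, against 9.55% of all genes and 20.9% of bright genes, and 0 fell, against 2.17% of all genes. At an unadjusted p under 0.05 there were 10, against 27.4%, and 27 differences were positive, against 60.3% of all and 74.2% of bright genes. The 4 were Psmd5 at 0.56, Psmd9 at 0.51, Psmd7 at 0.37 and Psmd2 at 0.29 (adjusted p = 0.0125, 0.0237, 0.0442 and 0.0307 in limma). Psmd5 had 8.85 and 9.17 in the acupoint group, against 8.42 and 8.47 on the control arrays, and Psmd9 had 7.95 and 8.08 in the acupoint group, against 7.65 and 7.37 on the control arrays. Without acupoint replicate 1 the count was 17 (19% of all genes rose in that fit), and without replicate 2 it was 1. It was 2 and 0 without control replicate 1 and 2, 1 without either MPTP array and 2 without either non-acupoint array. In non-acupoint minus control 13 members rose, against 15.4% of all genes and 31.8% of bright genes, and 0 fell. These were the 14 of the MPTP comparison without Psmb3. Psmd5 had 9.09 and 9.15 in the non-acupoint group, against 8.42 and 8.47 on the control arrays, a rise of 0.67 (adjusted p = 0.00476). Psmd6 had 10.57 and 10.49 in the non-acupoint group, against 9.88 and 9.86 on the control arrays, a rise of 0.66 (adjusted p = 0.0156). The count of 13 fell when a non-acupoint, control or MPTP array was left out. Over the 3 MPTP groups together 14 members rose, against 19.9% of all genes and 38.9% of bright genes, with Psmd14 (0.42, adjusted p = 0.0321) among them and Psmb3 not. In that comparison the bright genes in general rose nearly as often as the 34 bright members. The count of 14 fell without either control array and without MPTP replicate 1. Shares of all genes are not set beside these fits with 1 array left out. The falls therefore cannot be read as particular to the members.

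Of the genes that surround the proteasome, 33 were tested in 6 lists, chosen with earlier results of these data known, and 9 rose in MPTP minus control while 0 fell, against 13.7% and 3.10% of all genes. Among bright genes 28.7% rose, which is near the share of the 33, although some of these, such as Psmb8, are dimmer. Of 5 core assembly genes 2 rose, with a list median of 0.30. Pomp, the maturation protein of the core, had 11.27 and 11.29 on the MPTP arrays, against 10.79 and 10.87 on the control arrays (0.45, SE 0.084, adjusted p = 0.00899 in limma). Psmg2, an assembly chaperone of the alpha ring, rose by 0.45 (adjusted p = 0.0483), and Psmg1, Psmg3 and Psmg4 did not pass. Of 5 genes for proteasome-bound factors, the deubiquitinases Uchl5 and Usp14 rose by 0.54 and 0.44 (adjusted p = 0.0436 and 0.0308), while Sem1, Txnl1 and Ecpas did not pass. Uchl5 had 9.15 on acupoint replicate 1 and 9.74 on replicate 2, 9.70 and 9.72 on the non-acupoint arrays, 9.65 and 9.74 on the MPTP arrays, and 9.11 and 9.21 on the control arrays, and so had its lowest MPTP-treated value on the same array as most subunit genes.

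Of 9 genes for ubiquitin activation and shuttling 5 rose. Vcp, the segregase that extracts ubiquitinated proteins, had 10.78 and 10.76 on the MPTP arrays, against 10.45 and 10.45 on the control arrays (0.32, SE 0.062, adjusted p = 0.011 in limma). Its partner Ufd1 rose by 0.42, the ubiquitin-activating enzyme Uba6 by 0.33, the chaperone-linked ligase Stub1 by 0.28 and the shuttle Ubqln1 by 0.25. Of 6 regulators of proteasome genes 0 passed. Nfe2l1 was at 0.13 (adjusted p = 0.291) and Nfe2l2 at 0.33 (adjusted p = 0.0915). Of 5 activator and inhibitor genes 0 passed, with the inhibitor Psmf1 at 0.27 (adjusted p = 0.0559) and the activator Psme4 at -0.31 (adjusted p = 0.0612). The immunoproteasome genes, which replace the catalytic subunits in immune cells, did not pass: Psmb9 had 6.47 and 6.75 on the MPTP arrays and 7.02 and 6.77 on the control arrays (-0.29), Psmb8 was at -0.18 and Psmb10 at 0.031. In acupoint minus MPTP, non-acupoint minus MPTP and acupoint minus non-acupoint, 0 of the 33 genes passed, as 0% of all genes did.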

How the data were processed

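The deposited table holds log2 signals of 35557 probe sets on 8 arrays. Per the submitters' processing notes they come from Affymetrix Expression Console with RMA, a method of background correction, quantile normalization and probe summary. Their range fits log base 2. Such values keep no signal over background, and they understate changes of dim genes. Scan dates were not used here.

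Probe sets were named by the platform annotation, which gave 1 symbol for 21789. Those with a mean above the 30th percentile (4.297) were kept, and the brightest was taken for each gene. Limma 3.58.1 in R 4.3.3 was fitted to all 8 arrays with 1 mean per group and an intensity trend (4 residual and 5.341 prior degrees of freedom). P-values are two-sided, adjusted by Benjamini-Hochberg over 16026 genes within each of 7 contrasts, and called under 0.05. With 2 arrays against 2 the smallest exact permutation p is 0.3333. The members and lists were chosen with earlier results of these data known. Named with array values were members that passed in any contrast, the 2 core and 2 regulatory genes with the smallest p in each of the 4 main contrasts, and the catalytic genes; others were chosen after their values were seen. Figures used Python 3.11.15 and matplotlib 3.10.9. Alternatives were other normalizations, filters and eBayes settings, fewer arrays, array weights, the replicate block, averaged probe sets and a muscle marker covariate. Probe sets with several symbols or none were left out. The number of arrays limits the precision.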

Additional observations from a re-analysis of the deposited data

How the results depend on the processing

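Alternatives left the counts of members called in acupoint minus MPTP and non-acupoint minus MPTP at 0 in each of the fits run. For MPTP minus control the count of 14 was 7 after cyclic loess, 5 with eBayes without a trend and 0 with the muscle marker covariate, and 0 to 17 with 1 array left out. For acupoint minus control the count of 4 was 2 after cyclic loess, 2 without a trend, 0 with only the groups compared, 1 with array weights, 2 with the replicate block and 0 with the muscle covariate, and 0 to 17 with 1 array left out. For non-acupoint minus control the count of 13 was 8 after quantile normalization, 7 after cyclic loess (Psmc5 fell, at -0.25), 5 without a trend and 0 with the muscle covariate, and 1 to 16 with 1 array left out. For the 3 MPTP groups minus control the count of 14 was 0 with the muscle covariate and 2 to 17 with 1 array left out. For acupoint minus non-acupoint it was 0 to 8 with 1 array left out. The F-test count of 4 was 1 after cyclic loess, 13 with arrays centred on their medians, 7 with the filter at the 50th percentile, 1 without a trend, 7 with robust eBayes, 16 with array weights, 1 with the replicate block, 0 with the muscle covariate, and 0 to 18 with 1 array left out.

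The member median in MPTP minus control (0.21) was 0.084 after cyclic loess and 0.37 with arrays centred. In acupoint minus control (0.11) it was 0.011 after cyclic loess, 0.25 with arrays centred and 0.0047 with the muscle covariate. In non-acupoint minus control (0.14) it was 0.30 with arrays centred. In the 3 MPTP groups minus control (0.16) it was 0.014 after cyclic loess and 0.31 with arrays centred. With 1 array left out it ran from -0.22 to 0.0075 in acupoint minus MPTP and from -0.20 to 0.041 in acupoint minus non-acupoint.

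Signs turned in MPTP minus control for Psma7 after quantile normalization (-0.011) and cyclic loess (-0.061), for Psmc1 after cyclic loess (-0.0063), for Psmb5 after quantile normalization (-0.091), cyclic loess (-0.13), without control replicate 1 (-0.12) and without MPTP replicate 1 (-0.026), for Psmb6 after cyclic loess (-0.070), and for Psmb7 after quantile normalization (-0.0091), cyclic loess (-0.085) and with the muscle covariate (-0.20). With that covariate Psmd14 was at -0.0994 and Psmc6 at -0.034, and Psmd14 was at -0.13 in the 3 MPTP groups minus control. Without acupoint replicate 1, Psma5 was at 0.016 in acupoint minus non-acupoint, and without acupoint replicate 2 at -0.55. Of the other values of named genes, 795 kept their side of the threshold, 230 lost a call and 16 gained one. The causes were not tested.

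The labels do not say that replicate numbers pair the arrays. Differences of replicate 2 minus replicate 1 correlated across genes at -0.328 to 0.174 between groups. This cannot tell whether arrays of the same number shared a batch, since arrays also differed in tissue markers. The replicate block gave 13 members in MPTP minus control, without Psma5, where 11.3% of all genes rose. It gave 11 in non-acupoint minus control, for which the share of all genes is not given.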
